A study of Homo sapiens with 24 samples.

Results

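The genes described here are 10 long non-coding host genes of small nucleolar RNAs (snoRNAs): SNHG1, SNHG3, SNHG5, SNHG6, SNHG8, SNHG12, SNHG15, SNHG16, GAS5 and ZFAS1. They were chosen by symbol and are 10 of the 60658 genes in the deposited tables. A snoRNA of the C/D class guides ribose methylation and one of the H/ACA class guides pseudouridylation, mostly of ribosomal RNA. In human cells most snoRNAs are trimmed out of introns that have been spliced from a longer host transcript, so the spliced host and the snoRNA come from one precursor but then have separate fates. The spliced product of several of these hosts carries no long open reading frame and is known to be short-lived in the cytoplasm, where nonsense-mediated decay acts on it. Hosts of this kind are also known for a pyrimidine tract at their transcription start, a feature they share with ribosomal protein genes. The study set side by side the off-target effects of 4 ways to deplete a circular RNA, and the comparison of its setups here asked whether the hosts move with the snoRNAs.

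The 24 libraries came from cells labelled SH-SY5Y, a neuroblastoma line, and fell into 8 groups of 3. In each of 4 setups, libraries after knockdown of the circular RNA ciRS-7 (CDR1as), here KD, had a non-targeting control (NTC) that carried the same delivery. The RNA-guided nuclease CasRx, joined to GFP, came from a plasmid that was transfected with Lipofectamine 3000 together with a second plasmid, for the guide (gRNA) or its precursor (pre-gRNA). Vectors expressing a short hairpin were used for agoshRNA. A synthetic guide was used for syn-gRNA, with a delivery that the labels do not describe. RNA was taken 48 h after transfection, polyadenylated RNA was selected, and libraries without strand information were sequenced with paired reads of 100 nt. Setup, delivery and any shared processing of its 6 libraries cannot be told apart. The labels do not say whether the 3 libraries of a group are separate cultures, so p-values measure the spread between these libraries, which may be technical. Library totals ranged from 10994974 to 16233777 counts, with 10994974 to 15204685 in the syn-gRNA setup. Mitochondrial genes took 3.62 to 4.03% of the counts there and 3.36 to 5.13% in the other setups. Of 10 marker genes of noradrenergic neuroblastoma, 7 had a mean CPM (count scaled to a library total of 1000000) under 1, TH and DBH among them, while 6 of 7 kidney-lineage markers of HEK293 cells were above 10 CPM. On most of these markers the libraries went against the labelled cell type, and they are called here by their setup only. The row of CDR1-AS held 0 to 16 counts per library, too few to check the KD labels.

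The host rows could hold more than spliced host RNA. Each row used the union of the exons of all annotated transcripts of the gene, and all 129 transcripts listed for the 10 hosts were found in GENCODE 29, of which 47 are classed there as retained-intron transcripts. In SNHG1 (ENSG00000255717.6_2, chr11:62619460-62623386 in hg19, minus strand) the counted exons covered 95.6% of the gene, so that nearly all of its intron sequence lay within counted exons. The share was 92.6% in SNHG15 (ENSG00000232956.8_2, chr7:45022622-45026560, minus strand), 83.2% in SNHG3 (ENSG00000242125.3_4, chr1:28832492-28837404, plus strand), 82.8% in SNHG8 (ENSG00000269893.6_2, chr4:119199864-119200978, plus strand) and 76.0% in SNHG12 (ENSG00000197989.13_4, chr1:28905050-28909495, minus strand). It was 72.9% in GAS5 (ENSG00000234741.7_4, chr1:173833038-173838020, minus strand) and 70.7% in SNHG16 (ENSG00000163597.14_2, chr17:74553848-74561430, plus strand). Counted exons were a smaller part of SNHG6 at 26.4%, SNHG5 (ENSG00000203875.10_2, chr6:86370668-86388454, minus strand) at 15.7% and ZFAS1 (ENSG00000177410.12_4, chr20:47894715-47912275, plus strand) at 12.8%. GENCODE 29 places 24 snoRNA genes inside these hosts, 7 of them in SNHG1 and none in GAS5. Of these, 6 had a row of their own in the tables, and of the 18 without a row, 17 lay wholly within counted exons of the host, so reads from them could enter the host row. Of the 6 with a row, 5 lay outside all counted exons of the host, and SNORD12 lay wholly within an exon of 1 ZFAS1 transcript. A further snoRNA row, SNORD78 inside GAS5, is not in GENCODE 29, so the snoRNA genes listed for GAS5 are incomplete. This row brings the snoRNA rows inside hosts to 7, in SNHG3, SNHG12, SNHG16, GAS5 and ZFAS1.

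**Figure D1:**
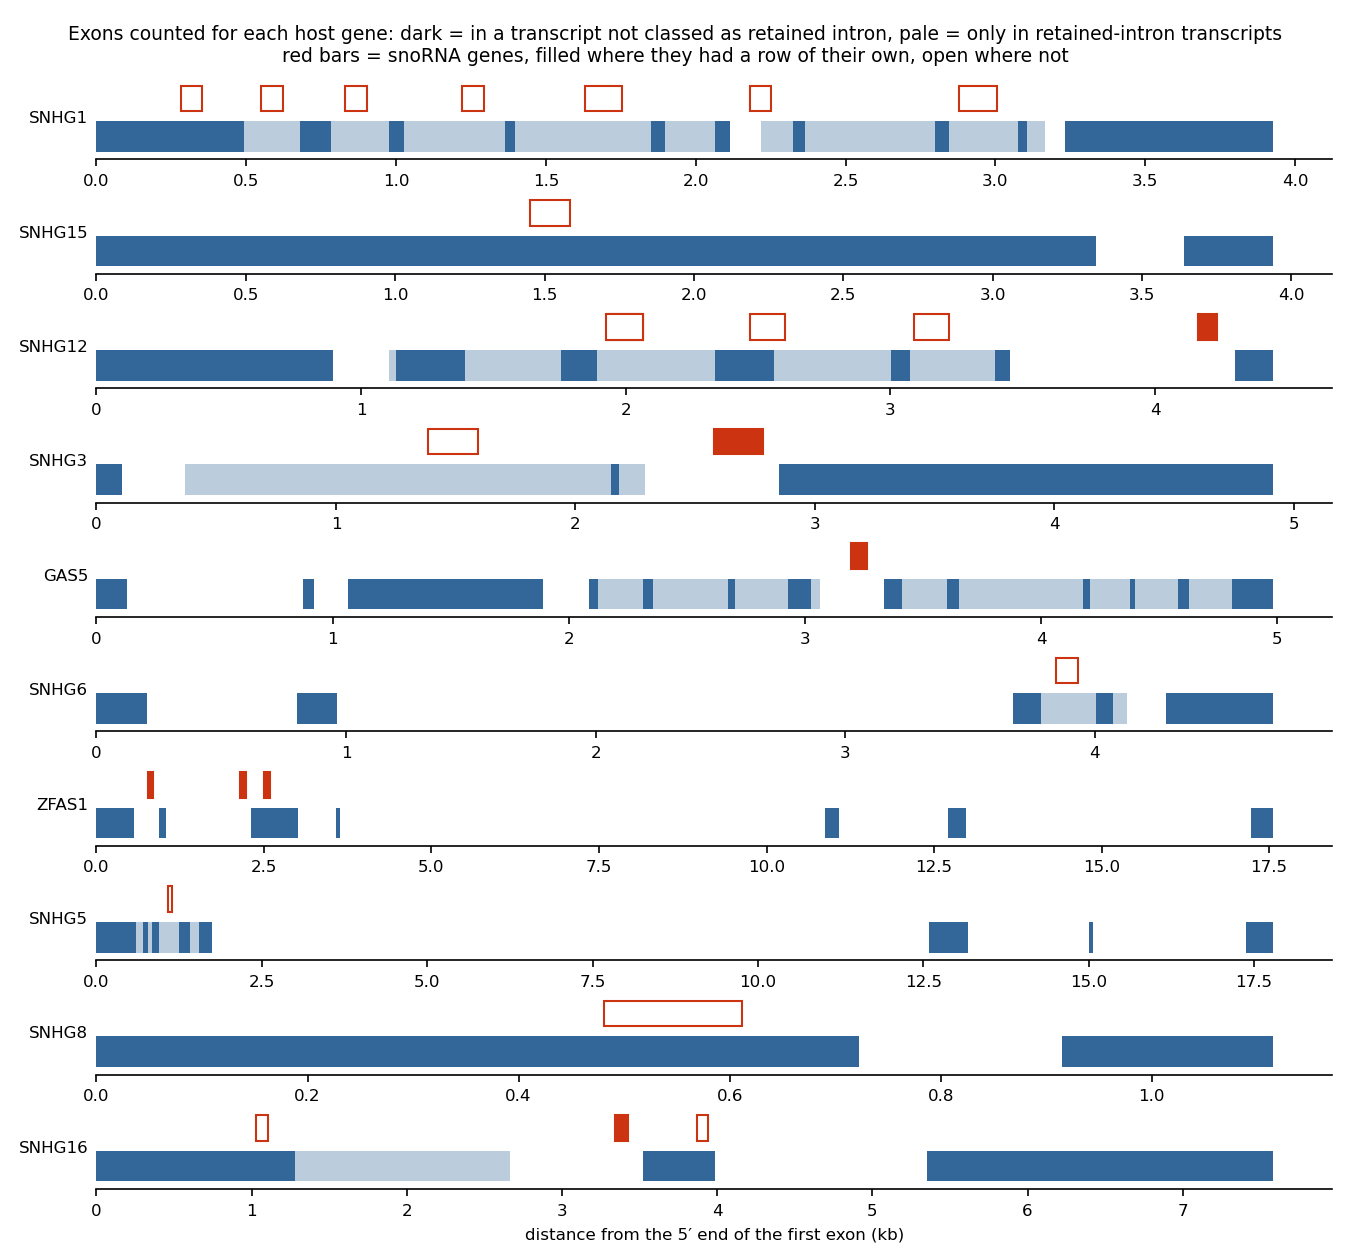
Exons counted for each of the 10 host genes, by distance in kb from the 5′ end of the first exon, with the scale set for each gene. Dark bars are exons of transcripts not classed as retained intron, pale bars are sequence counted only through retained-intron transcripts, and red bars are snoRNA genes, filled for the 7 with a row of their own and open for those without. In SNHG1, counted sequence covers 95.6% of the gene and all its snoRNA genes lack a row.

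The snoRNAs that the later comparisons turn on are printed here 5′ to 3′ from GENCODE 29 on GRCh38, with capitals for the class motifs found in them. For C/D snoRNAs these are TGATGA (C box) within the first 25 bases and CTGA (D box) within the last 20, which 67.6% of the 278 annotated C/D snoRNA genes hold together, and for H/ACA snoRNAs ACA within the last 8 bases, which 91.2% of 147 hold. Only the strand of the snoRNA was searched, and the motifs do not overlap. The first 5 have rows of their own, inside SNHG3 (chr1:28508559-28508762, plus strand), SNHG12 (chr1:28578749-28578822, minus strand), ZFAS1 (chr20:49280319-49280409 and chr20:49280683-49280772, plus strand) and SNHG16 (chr17:76561109-76561192, plus strand). The last 2 lie inside SNHG1 (chr11:62855564-62855632 and chr11:62855012-62855083, minus strand), have no row, and show what the host row could hold.
SNORA73B: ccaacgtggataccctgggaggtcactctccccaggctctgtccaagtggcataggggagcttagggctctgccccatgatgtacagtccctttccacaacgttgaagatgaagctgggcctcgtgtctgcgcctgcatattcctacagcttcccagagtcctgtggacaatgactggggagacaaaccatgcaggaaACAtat
SNORD99: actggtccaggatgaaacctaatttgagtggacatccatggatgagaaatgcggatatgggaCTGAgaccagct
SNORD12B: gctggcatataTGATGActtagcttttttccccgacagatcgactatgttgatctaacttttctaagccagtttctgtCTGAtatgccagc
SNORD12: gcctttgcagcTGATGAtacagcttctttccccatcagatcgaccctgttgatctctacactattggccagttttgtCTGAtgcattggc
SNORD1B: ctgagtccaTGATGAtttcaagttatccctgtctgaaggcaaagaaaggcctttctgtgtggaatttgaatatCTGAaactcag
SNORD25: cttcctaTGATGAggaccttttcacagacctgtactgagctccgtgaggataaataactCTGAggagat
SNORD27: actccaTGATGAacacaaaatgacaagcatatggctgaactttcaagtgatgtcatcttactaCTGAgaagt
SNORA73B is the H/ACA snoRNA U17 and ends in the ACA motif, 5 of the 6 C/D snoRNAs show both boxes, and SNORD99 shows the D box but not the searched form of the C box.

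Start windows of 8 of the 10 hosts were found in the RefSeq promoter table (GRCh38.p14). Of these, 3 are printed to show how the hosts differ in pyrimidine runs, with 20 bases before the start and 40 from it on. Capitals mark the longest run of C and T, or the first of them where runs tie. The run was 12 bases in SNHG12, as long as in 5.21% of all 35116 windows or longer, 7 bases in SNHG1 (32.9% of windows) and 8 bases in SNHG16 (22.5%). The windows lie at chr1:28581834-28581893 (minus strand), chr11:62855846-62855905 (minus strand) and chr17:76557744-76557803 (plus strand).
SNHG12: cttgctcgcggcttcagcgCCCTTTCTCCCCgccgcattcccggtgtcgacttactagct
SNHG1: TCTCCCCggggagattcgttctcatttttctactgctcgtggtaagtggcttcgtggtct
SNHG16: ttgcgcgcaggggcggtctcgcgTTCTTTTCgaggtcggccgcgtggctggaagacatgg
The marked run spans the start in SNHG12 and follows it in SNHG16. In SNHG1 it lies wholly before the start, and a run of the same length follows the start. A run of pyrimidines in such a window is a description of these letters and not a mapped start. In the windows not printed, the longest run was 8 bases in GAS5 and in ZFAS1 (22.5% of windows). It was 6 bases in SNHG3, SNHG5 and SNHG8, a length that 48.5% of all windows reached. The median longest run over all windows was 5 bases.

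Per length of counted exon, SNHG1 was the most abundant host and SNHG12 the least. The mean over the 24 libraries was 248 ± 165 CPM per kb (SD) for SNHG1 and 154 ± 65.6 for GAS5, the host first known from growth-arrested cells. SNHG6 followed at 89.6 ± 28.8, SNHG3 at 74.1 ± 33.7, ZFAS1 at 71.9 ± 24.5 and SNHG8 at 60.4 ± 14.6 CPM per kb. SNHG5 stood at 58.8 ± 18.4, SNHG15 at 45.3 ± 30.5, SNHG16 at 28.1 ± 3.52 and SNHG12 at 18.6 ± 10.7 CPM per kb. Every gap between neighbours in this order was smaller than the larger of the pair's SDs. The hosts differed more in how far they varied between libraries, from 1.65-fold between the lowest and the highest library for SNHG16 to 9.42-fold for SNHG1.

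**Figure D2:**
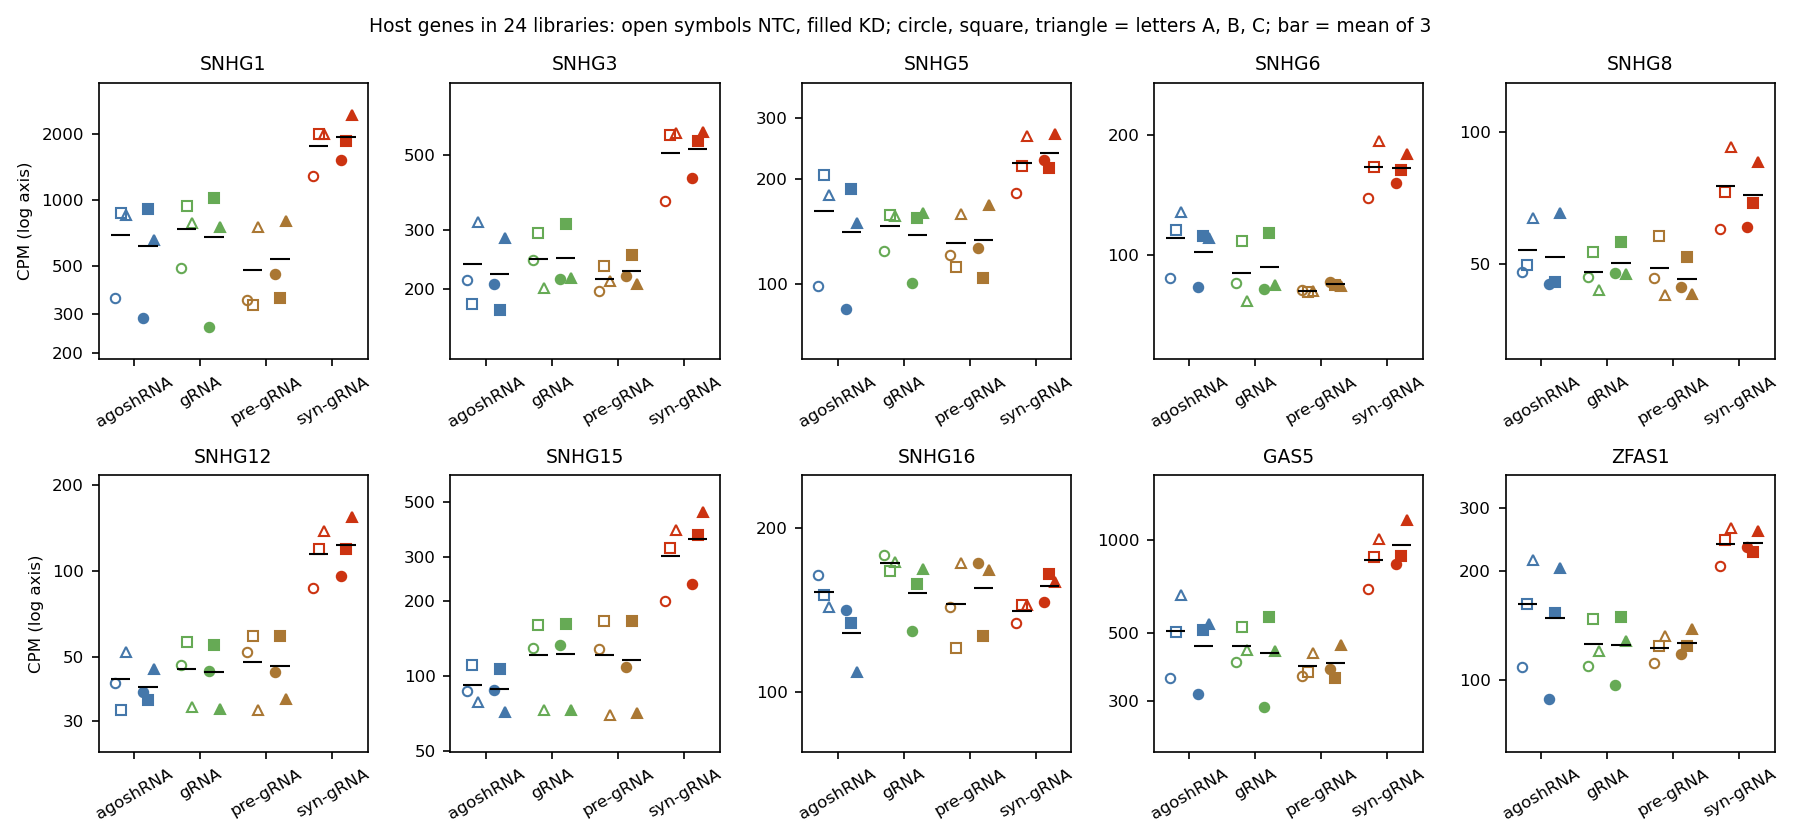
Level of each host gene in CPM (log axis, a range per gene) in the 24 libraries, by setup. Open symbols are NTC and filled symbols KD, circles, squares and triangles are the column letters A, B and C, and bars are means of 3. For SNHG1 the syn-gRNA libraries lie between 1290 and 2458 CPM and all other libraries between 261 and 1022 CPM, while SNHG16 shows no such step.

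In the syn-gRNA setup 6 hosts (SNHG1, SNHG3, SNHG6, SNHG12, SNHG15 and GAS5) were higher in each of the 6 libraries than in any of the 18 libraries of the other setups. Of 13835 genes averaging 50 counts or more, 1.92% showed this separation. SNHG1 measured 1290, 2014 and 2002 CPM in syn-gRNA NTC libraries A, B and C and 1532, 1861 and 2458 CPM in the KD libraries. In the other 18 libraries it ran from 261 CPM through a median of 703 to 1022. The lowest syn-gRNA library was thus above the highest of the others, and letter A was the lowest of its group in both arms.

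The test of that step compared syn-gRNA with the mean of the other 3 setups in a DESeq2 model of all 24 libraries, once for NTC and once for KD libraries, with Benjamini-Hochberg adjusted p-values over 20172 genes and calls under 0.05. Of the 10 hosts, 7 rose in the NTC libraries, where 3.21% of all genes were called higher, and 8 rose in the KD libraries, where 3.68% were. No host was called lower, against 2.76% and 3.32% of all genes. The median log2 difference over the 10 hosts was 0.94 in NTC and 1.03 in KD libraries, and over all genes tested it was -0.01 and -0.03. The arms are separate libraries, but libraries of one setup with the same letter deviated together, so the KD result is not an independent repeat.

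The hosts with the largest differences were SNHG1, SNHG15 and SNHG12. SNHG1, which carries 7 annotated snoRNA genes, was higher by 1.56 on the log2 scale in NTC libraries (SE 0.42, 2.95-fold, adjusted p = 0.00728) and by 1.72 in KD libraries (SE 0.42, adjusted p = 0.00212). SNHG15, the host of SNORA9, measured 200.3, 328 and 386 CPM in NTC libraries A, B and C and 235, 369 and 458 CPM in KD libraries, against 69.8 to 167 CPM with a median of 108 elsewhere. Its log2 difference was 1.50 (SE 0.38, adjusted p = 0.00435) in NTC and 1.72 (SE 0.38, adjusted p = 0.000555) in KD libraries. SNHG12, the host of SNORD99 and of 3 H/ACA snoRNAs, stood at 87.4, 119 and 138 CPM in NTC and 95.7, 119 and 154 CPM in KD libraries, and at 32.7 to 59.2 CPM with a median of 44.5 elsewhere. It had the smallest adjusted p of the hosts in both arms, at a log2 difference of 1.398 (SE 0.30, adjusted p = 0.000404) in NTC and 1.52 (SE 0.30, adjusted p = 6.03e-05) in KD libraries. All 3 genes were separated from the other setups without overlap.

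SNHG3 and GAS5 came next. SNHG3, which carries the U17 snoRNAs SNORA73A and SNORA73B, measured 367, 574 and 584 CPM in NTC and 427, 553 and 586 CPM in KD libraries, and 173 to 316 CPM elsewhere. The log2 difference was 1.19 (SE 0.26, adjusted p = 0.000702) in NTC and 1.20 (SE 0.26, adjusted p = 0.000496) in KD libraries. RCC1, a protein-coding gene whose interval on the same strand contains all of SNHG3, differed by 0.11 (adjusted p = 0.868) and 0.18 (adjusted p = 0.733), neither called. GAS5 stood at 695, 883 and 1011 CPM in NTC and 841, 890 and 1165 CPM in KD libraries, and at 287 to 664 CPM elsewhere. It was higher by 1.00 (SE 0.26, adjusted p = 0.00623) in NTC and 1.21 (SE 0.26, adjusted p = 0.000421) in KD libraries, again without overlap.

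The smaller rises were those of SNHG6, ZFAS1 and SNHG5. SNHG6 (ENSG00000245910.8_3, chr8:67833919-67838633 in hg19, minus strand), the host of SNORD87, measured 139 to 193 CPM in the 6 syn-gRNA libraries and 76.7 to 129 CPM elsewhere. It was higher by 0.89 (SE 0.22, adjusted p = 0.00281) in NTC and 0.85 (SE 0.22, adjusted p = 0.00419) in KD libraries. ZFAS1, the host of the SNORD12 family, ran from 207 to 264 CPM in syn-gRNA and from 88.8 to 215 CPM elsewhere, so that its ranges overlapped. Its difference was 0.86 (SE 0.27, adjusted p = 0.0346) in NTC and 0.87 (SE 0.27, adjusted p = 0.0288) in KD libraries. SNHG5, the host of SNORD50B, was called in KD libraries, at 0.82 (SE 0.28, adjusted p = 0.048), and not in NTC libraries, at 0.67 (SE 0.28, adjusted p = 0.148), a contrast between the arms that was not tested. Its ranges, 183 to 271 CPM in syn-gRNA and 84.9 to 206 CPM elsewhere, overlapped.

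SNHG8 and SNHG16 were not called in either arm. SNHG8, the host of SNORA24, measured 60.2 to 92.4 CPM in syn-gRNA and 42.5 to 65.2 CPM elsewhere, with log2 differences of 0.64 (SE 0.24, adjusted p = 0.098) and 0.56 (SE 0.24, adjusted p = 0.151) in NTC and KD libraries. SNHG16, the host of the SNORD1 family, stood at 134, 144 and 144 CPM in syn-gRNA NTC libraries, within the 109 to 179 CPM of the other setups. Its differences were -0.08 (SE 0.11, 95% interval -0.29 to 0.12, adjusted p = 0.743) in NTC and 0.16 (SE 0.11, 95% interval -0.05 to 0.37, adjusted p = 0.412) in KD libraries. Both intervals lie below the estimate of each called host in the same arm.

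**Figure D3:**
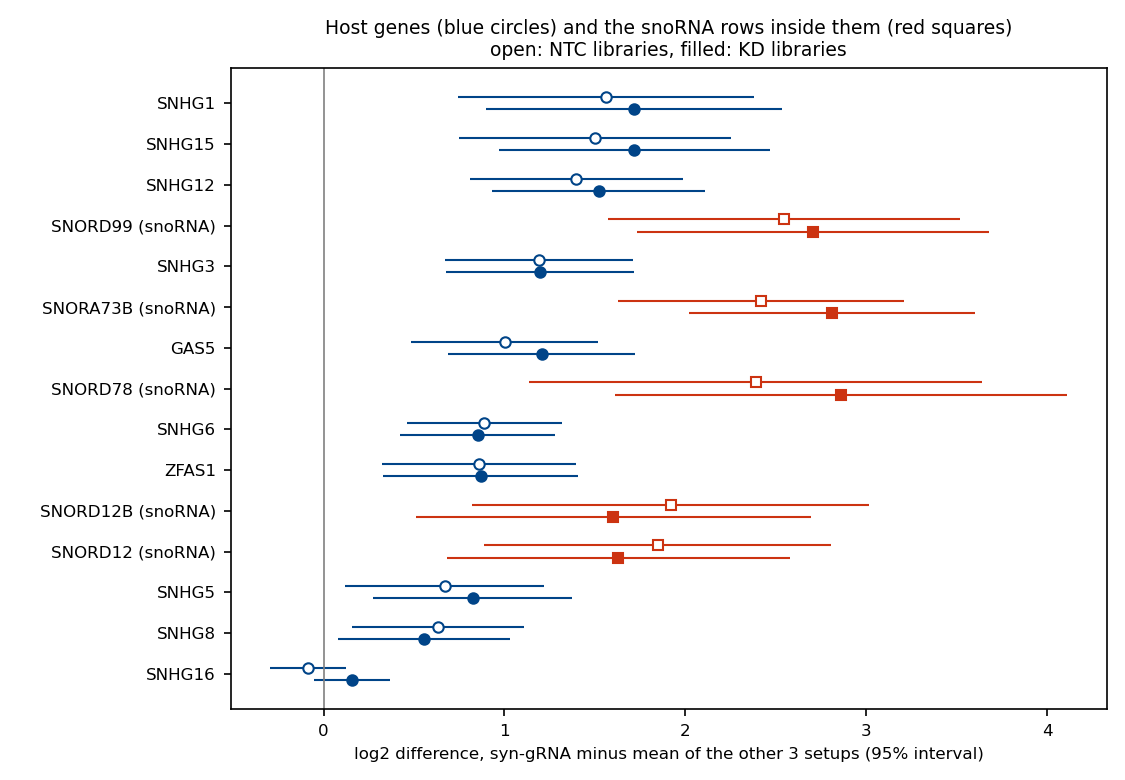
Log2 difference between syn-gRNA and the mean of the other 3 setups from the DESeq2 model of 24 libraries, with 95% intervals, for the hosts (blue circles) and the snoRNA rows inside them that were tested (red squares). Open symbols are NTC and filled symbols KD libraries. Hosts run from -0.08 for SNHG16 to 1.72 for SNHG15, and each of the 5 snoRNA rows lies to the right of its host.

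These counts rested on small groups. Without syn-gRNA NTC library B, or without library C, 1 host (SNHG12) was called in the NTC libraries, in fits that called 264 and 231 genes in all in place of 1205. Without KD library C, 3 hosts (SNHG3, SNHG12 and GAS5) were called in the KD libraries, and without library B, 5. In edgeR's quasi-likelihood test 6 hosts were called in each arm, where 2.41% and 2.77% of genes were called higher, ZFAS1 not among them (adjusted p = 0.0595 in NTC and 0.0504 in KD libraries). With 1 library left out at a time, the ZFAS1 call was lost in 7 of 12 fits of NTC and 5 of 12 of KD libraries, and the SNHG5 call of KD libraries in 9 of 12, while SNHG12 kept its call in all 12 in each arm.

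Classes of genes differed in the share called higher in the syn-gRNA libraries, beside 3.21% of all genes in NTC and 3.68% in KD libraries. Processed-transcript genes, the class of SNHG1, SNHG3, SNHG5, SNHG6, SNHG16 and GAS5, had 15 (4.93%) and 17 (5.59%) of 304 called higher. These calls include SNHG1, SNHG3, SNHG6 and GAS5 in both arms and SNHG5 in KD libraries. The share of this class is thus raised by the hosts themselves. Antisense genes, the class of SNHG12 and ZFAS1, had 106 (4.53%) and 109 (4.66%) of 2340, both hosts among them in each arm. Of 172 snoRNA genes tested, 116 rose in NTC and 127 in KD libraries, with a median log2 difference of 1.85 and 1.98. Sense-intronic genes, single transcripts annotated inside introns of other genes, had a median of 0.53 and 0.46 over 200 genes, with 37 (18.5%) and 43 (21.5%) called higher and 3 and 0 lower. Processed pseudogenes were above the share of all genes too, with 64 (9.77%) and 68 (10.4%) of 655 called higher. So were lincRNA genes, the class of SNHG8 and SNHG15, with 53 (6.17%) and 58 (6.75%) of 859, SNHG15 among them in each arm. Of 33 snRNA genes, 4 and 2 were called higher and 3 and 2 lower, and of 14104 protein-coding genes 145 (1.03%) and 190 (1.35%) were called higher, with a median of -0.06 and -0.09. The part that intron and snoRNA reads had in the host rows was not tested, since the rows give 1 total per gene. Over the 10 hosts, Spearman's rho of the log2 difference was 0.67 in NTC and 0.60 in KD libraries with the share of the gene in counted exons (Pearson's r 0.38 and 0.43), and 0.48 and 0.47 with the mean count (Pearson's r 0.42 and 0.48). It was 0.46 and 0.35 with the share of exon sequence counted only through retained-intron transcripts (Pearson's r 0.32 and 0.39), and 0.31 and 0.27 with exon length (Pearson's r -0.05 and 0.13). These 4 properties were tried on genes of the same libraries and are given as a description. Because the libraries carry no strand information, reads of genes on the opposite strand could also enter a host row. MCMDC2, which overlaps SNHG6 by 365 bases, differed by 0.78 (adjusted p = 0.0171) in NTC libraries. RP11-666A8.13 opposite SNHG16 (-0.24, adjusted p = 0.295), GAS5-AS1 (0.60, adjusted p = 0.163), ZNFX1, ZBTB37 and TRNAU1AP were not called.

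Between single pairs of setups, host calls were made only where syn-gRNA was one of the pair. These contrasts share the syn-gRNA libraries and are given side by side. Against agoshRNA, 3 hosts rose in NTC libraries (SNHG3, SNHG12 and SNHG15; 1.03% of all genes were called higher) and 4 in KD libraries (these 3 and GAS5; 1.73%). Against gRNA, SNHG3, SNHG6 and SNHG12 rose in NTC libraries (0.848%) and SNHG3, SNHG12 and GAS5 in KD libraries (1.14%). Against pre-gRNA, 5 hosts rose in NTC libraries (SNHG1, SNHG3, SNHG6, SNHG12 and GAS5; 2.08%) and 6 in KD libraries (these 5 and SNHG15; 1.87%). SNHG3 and SNHG12 were called in each of the 6 contrasts, at log2 differences of 1.12 to 1.26 and 1.24 to 1.62. Among the agoshRNA, gRNA and pre-gRNA setups, 0 hosts were called by DESeq2 in the 6 contrasts, with 0 at an unadjusted p under 0.05, where 0, 0.0347, 0.0446 or 0.0496% of genes were called, and edgeR called 0 hosts as well. Over all pairs the host calls numbered 11 in NTC and 13 in KD libraries with DESeq2, and 0 and 3 with edgeR. They fell to 0 in NTC libraries without syn-gRNA library B or C, and to 3 and 0 in KD libraries without B or C, and to 6 in either arm without pre-gRNA library A.

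The snoRNA rows inside SNHG3, SNHG12 and GAS5 rose further than their hosts. Polyadenylated RNA was selected, and whether a snoRNA row held mature snoRNA or longer unspliced RNA was not tested. SNORA73B measured 12.1, 27.3 and 30.3 CPM in syn-gRNA NTC libraries A, B and C and 17.3, 29.4 and 40.6 CPM in KD libraries, against 2.75 to 8.62 CPM elsewhere. SNORD99 stood at 3.56 to 13.6 CPM in syn-gRNA and 0.591 to 2.92 CPM elsewhere, and SNORD78 at 4.495 to 12.4 CPM and 0.0744 to 2.88 CPM. All 3 were separated without overlap, as SNHG3, SNHG12 and GAS5 were. Their log2 differences in NTC libraries were 2.42 (SE 0.40, adjusted p = 1.34e-06) for SNORA73B, 2.54 (SE 0.50, adjusted p = 6.16e-05) for SNORD99 and 2.39 (SE 0.64, adjusted p = 0.00728) for SNORD78. In KD libraries they were 2.81, 2.71 and 2.86, all called. In ZFAS1, SNORD12B differed by 1.92 and SNORD12 by 1.85 in NTC libraries (adjusted p = 0.0174 and 0.00658), and in KD libraries by 1.60 (adjusted p = 0.0543, not called) and 1.63 (adjusted p = 0.0182). SNORD12C and SNORD1B, with means of 4.38 and 3.79 counts, were too low for a DESeq2 test of their own. SNORD1B ran from 1 to 12 counts per library, so whether the snoRNA of SNHG16 stayed level with its host was not detectable at this depth.

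The difference between snoRNA row and host row was tested directly on the log2 ratio of their counts in each library (0.5 added to both). An exact two-sided permutation test set 3 syn-gRNA against 9 other libraries of an arm. The ratio does not tell mature snoRNA from longer RNA counted in the same row. There were 8 tests, of 4 hosts in 2 arms, and the smallest p that 220 arrangements allow is 0.00455. For SNHG3 the ratio was -4.53 ± 0.35 (SD, n = 3) in syn-gRNA NTC libraries and -5.72 ± 0.34 (SD, n = 9) in the others, a difference of 1.19 (exact permutation p = 0.00455, adjusted p = 0.0121). The difference was 1.58 in KD libraries (adjusted p = 0.0121 by the exact permutation test), and the groups did not overlap in either arm. For SNHG12, whose groups overlapped in NTC but not in KD libraries, it was 1.14 in NTC (adjusted p = 0.0182) and 1.12 in KD libraries (adjusted p = 0.0121), by the same exact test. For GAS5 the ratio of SNORD78 to host differed by 1.48 in NTC libraries (exact permutation, adjusted p = 0.0218). In KD libraries it differed by 2.15 (exact permutation, adjusted p = 0.0242). SNORD78 held 1 to 40 counts per library outside syn-gRNA, and its ratio in the 9 other KD libraries had an SD of 1.38. The size of the GAS5 differences thus rests partly on low counts. For ZFAS1, with its 3 snoRNA rows summed, the differences of 1.12 (adjusted p = 0.0519) and 0.81 (adjusted p = 0.0727) did not pass the exact test. Of the 4 hosts, 3 thus passed in each arm, and without syn-gRNA NTC library C 1 (SNHG3) passed in the NTC libraries. GAS5 did not pass in the KD libraries when any one of the 3 syn-gRNA libraries was left out, with adjusted p from 0.0727 to 0.0831 in the exact permutation test. SNORD12, 1 of the 3 rows summed for ZFAS1, lies wholly within an exon of a ZFAS1 transcript, so reads there overlap both genes, and how they were assigned is not given in the sources used here. Where SNORA73A, SNORA61, SNORA44 or SNORA16A gave reads, these could enter the host row, so the ratios of SNHG3 and SNHG12 set a snoRNA row against a host row that may hold other snoRNAs.

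**Figure D4:**
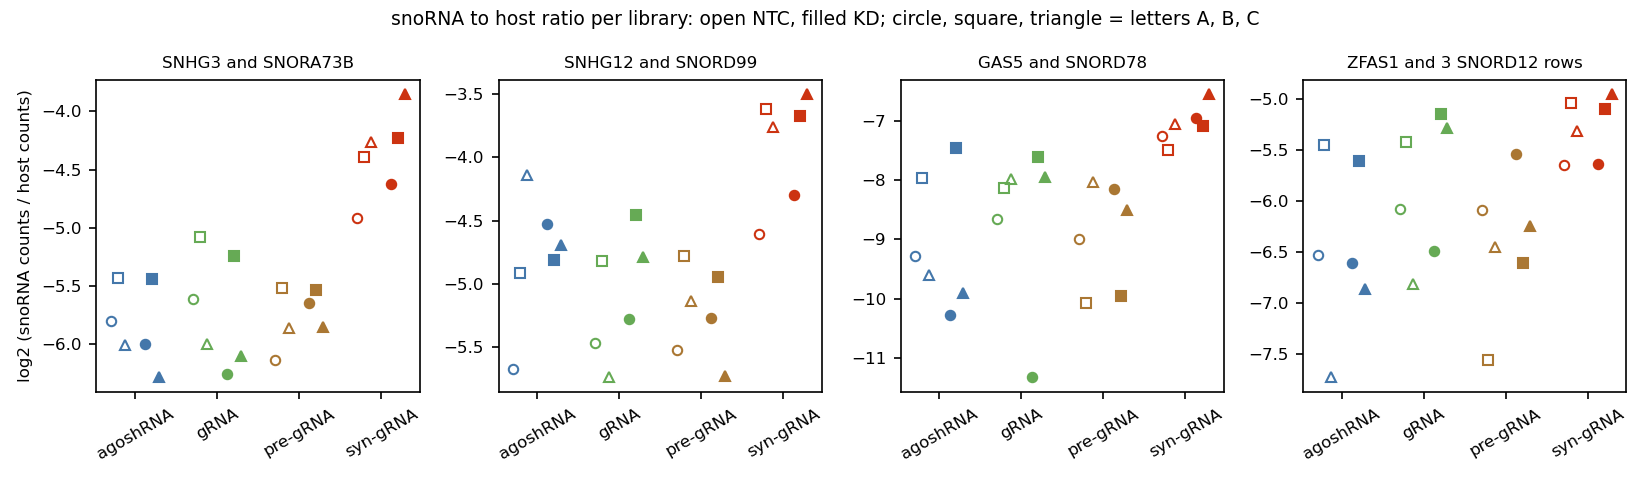
Log2 of snoRNA counts over host counts in each of 24 libraries for the 4 tested hosts, by setup. Open symbols are NTC and filled symbols KD, and circles, squares and triangles are letters A, B and C. For SNHG3 with SNORA73B the 3 syn-gRNA NTC libraries average -4.53 and the 9 other NTC libraries -5.72.

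The hosts mostly moved together across the 24 libraries, which hold the syn-gRNA step. The correlation of each host's log2 CPM with the mean of the other 9 (standardised) was highest for GAS5 (r = 0.97) and lowest for SNHG16 (r = -0.04), with SNHG15 at 0.77 and the rest between 0.84 and 0.94. Over the 18 libraries outside syn-gRNA it was 0.92 for GAS5, 0.76 for SNHG1, 0.75 for ZFAS1 and 0.74 for SNHG6. It was 0.65 for SNHG5, 0.51 for SNHG3 and 0.40 for SNHG8, but 0.10 for SNHG12, -0.09 for SNHG15 and -0.14 for SNHG16. The points share libraries and depth, and no p was computed. The genes outside the 10 whose pattern was most like the hosts' mean over the 24 libraries were PCF11, a transcription termination factor (r = 0.98, and 0.94 over the 18 libraries), the antisense gene RP11-968A15.2, the snoRNAs SNORA33 and SNORD100, and the lincRNA RP11-383J24.5 (r = 0.97 to 0.98). Because they were picked for a profile that holds the syn-gRNA step, their differences between setups are not tested here. As a description, PCF11 was higher in syn-gRNA NTC libraries by 1.82 on the log2 scale and SNORA33 by 3.202.

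Much of the spread within a setup followed the column letters. In SNHG1, agoshRNA NTC libraries A, B and C measured 357, 869 and 856 CPM and gRNA KD libraries 261, 1022 and 750 CPM, with letter A the lowest each time. In pre-gRNA NTC libraries the values were 348, 330 and 755 CPM, with letter C the highest. Within a setup the highest library was 3.16, 3.92, 2.42 and 1.91 times the lowest in agoshRNA, gRNA, pre-gRNA and syn-gRNA. SNHG15 showed another order, with letter C at 72.1 to 79.1 CPM in agoshRNA, 72.9 to 73.6 in gRNA and 69.8 to 70.9 in pre-gRNA, the lowest of its group each time.

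In 5 related gene lists the counts called higher are read against 3.21% of all genes in NTC and 3.68% in KD libraries. Of 7 other non-coding snoRNA hosts tested, 2 rose in both arms, SNHG9 (log2 difference 1.72, adjusted p = 0.00118 in NTC libraries) and SNHG10 (0.70, adjusted p = 0.00181), with a list median of 0.42 in NTC and 0.40 in KD libraries. Of 30 protein-coding snoRNA hosts, 2 rose in both arms, the initiation factor gene EIF4A2 (1.29, adjusted p = 0.0398 in NTC libraries) and the chaperone gene HSPA8 (0.79, adjusted p = 0.0481), and the list median was 0.11 and 0.16. Of 16 nonsense-mediated decay factors, RBM8A, a subunit of the exon junction complex, was called higher (0.49, adjusted p = 0.0482 in NTC and 0.62, adjusted p = 0.00561 in KD libraries) and the list median was 0.04 and -0.01. Of 13 other transcripts reported as sensitive to that decay pathway, GADD45B, a growth-arrest and stress gene, was called higher (2.28, adjusted p = 0.000187 in NTC libraries) and none lower, with a list median of -0.26 and -0.31. Of 19 snoRNP proteins and assembly factors, NAF1, an assembly factor of H/ACA particles, rose in KD libraries (0.98, adjusted p = 0.0384) and measured 0.92 (adjusted p = 0.0612) in NTC libraries, and the list median was 0.14 in NTC and 0.09 in KD libraries. Nothing particular to these lists is read from 0 to 2 calls each. The medians of these lists stand beside medians of -0.01 and -0.03 over all genes.

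No host was found to change with KD in any setup. In 6-library DESeq2 fits of KD against NTC, 0 of 10 hosts and 0% of all genes were called in agoshRNA, gRNA, pre-gRNA and syn-gRNA, and 0 hosts had an unadjusted p under 0.05. At that level 0, 17, 2 and 55 genes of all those tested were found, and edgeR called 0 genes as well, with 3, 34, 11 and 176 at an unadjusted p under 0.05. In agoshRNA each of the 10 hosts had a log2 fold change below 0, from -0.23 for SNHG16 to -0.02 for SNHG8, with a median of -0.08 beside 0.06 over all genes tested. The host medians were 0.07 in gRNA, 0.00231 in pre-gRNA and 0.08 in syn-gRNA. The 10 signs of one setup are not separate observations, because most of the hosts vary together between libraries. Without agoshRNA KD library A the agoshRNA median turned to 0.13, and without NTC library C to 0.06.

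**Figure D5:**
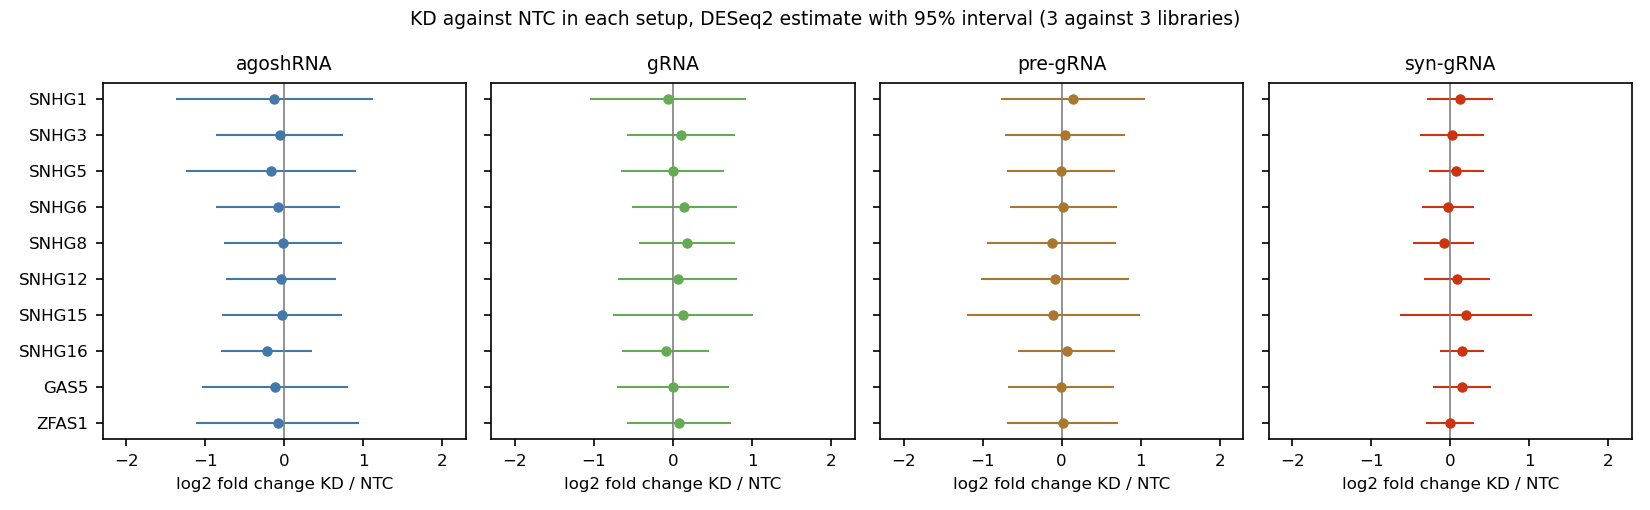
Log2 fold change of KD against NTC for the 10 hosts in each setup, with 95% intervals from DESeq2 (3 against 3 libraries). In these fits, without a letter block, every interval crosses 0, and those of SNHG1 run from -1.38 to 1.12 in agoshRNA and from -0.30 to 0.54 in syn-gRNA.

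The precision of these comparisons differed between setups and with the pairing by column letter. For SNHG1, with KD libraries at 287, 908 and 656 CPM and NTC libraries at 357, 869 and 856 CPM in agoshRNA, the log2 fold change was -0.13 (SE 0.64), and in syn-gRNA it was 0.12 (SE 0.21). For GAS5 the value was -0.12 (SE 0.47) in agoshRNA, at 316, 510 and 536 CPM in KD and 355, 502 and 664 CPM in NTC libraries, and 0.15 (SE 0.19, 95% interval -0.22 to 0.51) in syn-gRNA. With the letter as a block, SNHG1 measured -0.18 (SE 0.16) in agoshRNA, -0.18 (SE 0.20) in gRNA, 0.17 (SE 0.098) in pre-gRNA and 0.14 (SE 0.096) in syn-gRNA, none called. In the same fits 1 host had an unadjusted p under 0.05, SNHG15 in syn-gRNA. Its KD libraries A, B and C stood at 235, 369 and 458 CPM and its NTC libraries at 200.3, 328 and 386 CPM, higher with KD in each letter, and the blocked log2 fold change was 0.21 (SE 0.08, DESeq2 unadjusted p = 0.0115, adjusted p = 1.00). In edgeR's blocked fit it was 0.21 as well (unadjusted p = 0.0189, adjusted p = 0.686). The SNORD78 row had the largest change of the 5 tested snoRNA rows in syn-gRNA, 0.58 (SE 0.30, DESeq2 adjusted p = 1.00), and was not called. In the authors' deposited tables the adjusted p of all 10 hosts was 1 in each setup, with median log2 fold changes of -0.09 in agoshRNA, 0.07 in gRNA, 0.00410 in pre-gRNA and 0.12 in syn-gRNA. The smallest unadjusted p there was 0.0425, for SNHG16 in agoshRNA.

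The KD changes of the hosts were not found to differ between setups. In the 6 pairwise differences of KD effects, 0 hosts and 0% of 20172 genes were called by DESeq2, with 29 to 45 genes at an unadjusted p under 0.05, and edgeR called 0, with 46 to 61 genes at that level. The one host under that unadjusted level in the DESeq2 model without a letter block was SNHG16, whose KD effect was higher by 0.38 in syn-gRNA than in agoshRNA (SE 0.18, 95% interval 0.02 to 0.75, unadjusted p = 0.0382 in DESeq2, adjusted p = 1.00). With the letter as a block, 0 hosts were called and 1 host was under that level in 3 of the 6 differences.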

How the data were processed

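Gene expression was measured by sequencing of polyadenylated RNA in 24 libraries, 8 groups of 3. Per the submitters' processing notes, reads were handled with Trim Galore, STAR 2.7.3a and featureCounts, the build was hg19, and DESeq2 was used; the annotation release and the counting settings are not given in the sources used here. The authors deposited 4 tables with identical raw counts for 60658 genes per the file headers, which were used as counts. Their 96 columns of normalised counts (signal) were not used, and the authors' deposited log2 fold changes and p-values were used for 1 side-by-side reading. Groups came from the labels. Column letters A, B and C could not be linked to the labels' replicate numbers, but libraries of a setup with the same letter deviated together from their group means (r = 0.36 to 0.97 over 13835 genes), so the letters were taken to pair KD and NTC libraries.

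Genes reaching 10 counts in 3 or more libraries were tested with DESeq2 1.42.0 in R 4.3.3 (Wald test, Benjamini-Hochberg adjusted p under 0.05): KD against NTC within each setup on 6 libraries, and setups and differences of KD effects in a fit of all 24 libraries that gave each group its own coefficient. edgeR 4.0.16 (quasi-likelihood test, TMM factors), other filters, a letter block and leaving out each library were alternatives. Ratios were tested by enumerating all arrangements of the libraries, and SciPy 1.17.1 gave Spearman's rho. Where the parametric dispersion trend could not be fitted, DESeq2's local trend was used. The fits were tested on simulated data with 200 changed genes. In KD against NTC, a 2-fold change was recovered for 4% of them in agoshRNA, 12.5% in gRNA, 3% in pre-gRNA and 94% in syn-gRNA. For syn-gRNA NTC against the mean of the other setups it was 28% with DESeq2. CPM is a count scaled to a library total of 1000000. Gene types and transcripts were matched to GENCODE 29 for 93.2% of genes. The members and lists were chosen with earlier results of these data known. The text names each of the 10 hosts, the snoRNA rows inside them, genes overlapping them, the 5 genes most alike and the called members of the lists. Some results are not reported here.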

Additional observations from a re-analysis of the deposited data

How the results depend on the processing

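Every value of syn-gRNA against the other setups kept its direction in all alternatives run. In NTC libraries the hosts called ranged from 1 to 8 when 1 library was left out, and in KD libraries from 3 to 8. DESeq2 called 1205 and 1412 genes in all in the NTC and KD libraries, edgeR 660 and 769, and a filter of at least 20 counts in every library 871 and 959, with SNHG8 then called in NTC libraries (log2 difference 0.67, adjusted p = 0.0404 in DESeq2). The fit on the 12 KD libraries alone called 635 genes. Over the pairs of setups, host calls numbered 11 in NTC and 13 in KD libraries, 0 and 3 with edgeR, and 17 in NTC libraries with fits of the pair's 6 libraries. Leaving out 1 library gave 0 to 13 and 0 to 17. The count of hosts whose snoRNA ratio passed, 3 of 4 in each arm, became 1 to 4 in NTC and 2 to 4 in KD libraries, and 0 against any single other setup, where 3 against 3 libraries cannot give an exact p below 0.1. The letter as replicate block changed no host call in KD against NTC: 0 hosts were called in every setup by DESeq2 and edgeR, and the agoshRNA median was -0.10 with it; the edgeR block was chosen after seeing the data. With 1 library left out, the median KD change of the hosts ranged from -0.25 to 0.13 in agoshRNA, -0.11 to 0.27 in gRNA, -0.12 to 0.18 in pre-gRNA and -0.10 to 0.20 in syn-gRNA. In the same order the range was -0.60 to 0.25, -0.50 to 0.31, -0.23 to 0.57 and -0.093 to 0.29 for SNHG1, and -0.36 to 0.15, -0.25 to 0.20, -0.12 to 0.12 and -0.024 to 0.29 for GAS5. The GAS5 value near 0 turned to 0.000573 in gRNA with all 24 libraries in the model and to 0.0125 in pre-gRNA with the stricter filter. The cause of these changes was not tested, apart from the fewer samples or genes that the alternatives use. Depth limits the rows of SNORD1B and SNORD12C, which fell below the count filter of the main DESeq2 fits. In an alternative without the minimum mean of 10 snoRNA counts, the ratio of SNORD1B to SNHG16 differed by 0.85 in NTC libraries (exact permutation, adjusted p = 0.0795). In KD libraries it differed by 0.39 (exact permutation, adjusted p = 0.532), and neither passed.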
